A study of Homo sapiens with 12 samples.

Results

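The transcripts of 10 genes that run the G1 phase of the cell cycle were followed across 12 RNA-seq libraries labelled Jurkat, with or without forced PTPN21 expression and with or without vincristine (VCR). The 10 genes are the cyclins CCND2, CCND3, CCNE1 and CCNE2, the cyclin-dependent kinases CDK2, CDK4 and CDK6, the inhibitors CDKN1B (p27) and CDKN2C (p18) and the phosphatase CDC25A. They were taken by gene symbol from a table of 60671 genes, and all 10 were found and passed the filter on low values. Levels are FPKM, fragments scaled by transcript length and by sequencing depth, so levels of different genes can be set side by side. CDK4 fell about 3-fold with VCR in both kinds of cells and had the smallest adjusted p of the 10 in both drug comparisons. CCNE2 and CDKN2C also fell with VCR in control cells, CDK2, CDK6, CCNE1 and CDKN1B passed the test in no comparison. Without drug CCNE2 was also lower in PTPN21 cells, a call that held in 2 of 9 other settings.

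In G1, D-type cyclins bind CDK4 or CDK6 and these kinases phosphorylate the retinoblastoma protein, which releases E2F transcription factors. E2F in turn drives the genes for E-type cyclins, CDC25A and the enzymes of DNA synthesis. Cyclin E with CDK2, activated when CDC25A removes inhibitory phosphates, carries the cell into S phase. INK4 proteins such as p18 bind CDK4 and CDK6 and keep D-type cyclins off them, while KIP proteins such as p27 bind cyclin-CDK2 complexes and block them. Much of the control of these proteins lies in degradation and phosphorylation, which RNA-seq does not measure.

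Each of 4 groups had 3 libraries. NC cells carried the GFP lentiviral vector (their labels read WT) and PTPN21 cells carried a lentivirus in which the SFFV promoter drives FLAG-tagged PTPN21, a FERM-domain tyrosine phosphatase. Both were treated for 48 h with VCR, a vinca alkaloid that blocks microtubule assembly and arrests cells in mitosis, or with its solvent DMSO, giving the groups NC+DMSO, NC+VCR, PTPN21+DMSO and PTPN21+VCR. For these cells the dose of VCR is not given in the sources used here, and the study's methods speak of repeated independent experiments in general without saying whether these replicates came from separate transductions or cultures, so p-values cover only the spread between these libraries, which may be technical. PTPN21 itself stood between 0.0212 and 0.569 FPKM in the 6 NC libraries and between 4.34 and 10.5 FPKM in the 6 PTPN21 libraries, in accord with the labels.

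The labelled cell type was checked against its defining genes before anything else. Of 11 T cell line markers only CD3D and TAL1 reached a mean of 1 FPKM, and LCK, CD5, CD28 and CD247 were listed at 0 in all 12 libraries. Erythroid genes were high instead, with HBA1 between 49.4 and 190.1 FPKM, and these genes were looked at more widely after those values were seen (GATA1 13.5 to 106.5 FPKM, HBG2 560 to 2985 FPKM). The libraries are therefore called here by their labels, and the cell type behind them is not named. Without drug the summed level of 2 erythroid markers, of which HBA1 alone reached a mean of 1 FPKM, lay between 82.5 and 87.5 FPKM in the NC libraries and 133 and 190.4 FPKM in the PTPN21 libraries. With VCR it lay between 49.4 and 59.5 FPKM and between 60.2 and 75.5 FPKM. Of 4 epithelial and fibroblast markers 2 reached 1 FPKM, KRT8 and EPCAM. The 4 summed to 295 to 429 FPKM in the 6 DMSO libraries and 798 to 1308 FPKM in the 6 VCR libraries. KRT8 made up most of that sum, with 236 to 362 FPKM in DMSO and 709 to 1186 FPKM in VCR libraries. EPCAM had 58.4 to 78.0 and 83.1 to 122.7 FPKM. Of 5 myeloid markers 2 reached 1 FPKM, and of 5 B cell markers 0 did. The erythroid sum moved with both the drug and PTPN21 and the epithelial sum with the drug, and their part in the results below was not tested. In bulk RNA, fewer cells of a kind and less RNA per cell cannot be told apart, and a change in the share of cells in G1 cannot be told apart from a change within them.

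Across all 12 libraries CDK4 had the highest mean level of the 10 genes, 29.1 FPKM, at percentile 81.2 of the 11591 genes tested. CDK2 (12.7 FPKM), CCNE1 (11 FPKM) and CDKN1B (9.74 FPKM) followed, then CCND3 (7.96 FPKM) and CDKN2C (7.88 FPKM). The lowest means were those of CCNE2 (4.41 FPKM), CDC25A (4.12 FPKM), CCND2 (2.81 FPKM) and CDK6 (2.67 FPKM). In NC+DMSO libraries CDK4 (39.4 to 49.3 FPKM) lay above the ranges of the other 9 genes, while CCNE1, CDKN1B and CCND3 overlapped one another and both CDK2 and CDKN2C. CDK2 (11.8 to 27.6 FPKM) lay above CDKN2C (10.1 to 10.8 FPKM). Without drug the D-type cyclin with the highest mean was none of the 10: CCND1 stood at 15.6 ± 2.59 FPKM (SD, n = 3) in NC+DMSO, against 10.1 ± 5.66 FPKM for CCND3 and 5.01 ± 2.28 FPKM for CCND2. With VCR the mean of CCND3 was the higher, 5.54 against 5.47 FPKM for CCND1 in NC+VCR and 4.78 against 3.14 FPKM in PTPN21+VCR.

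**Figure D1:**
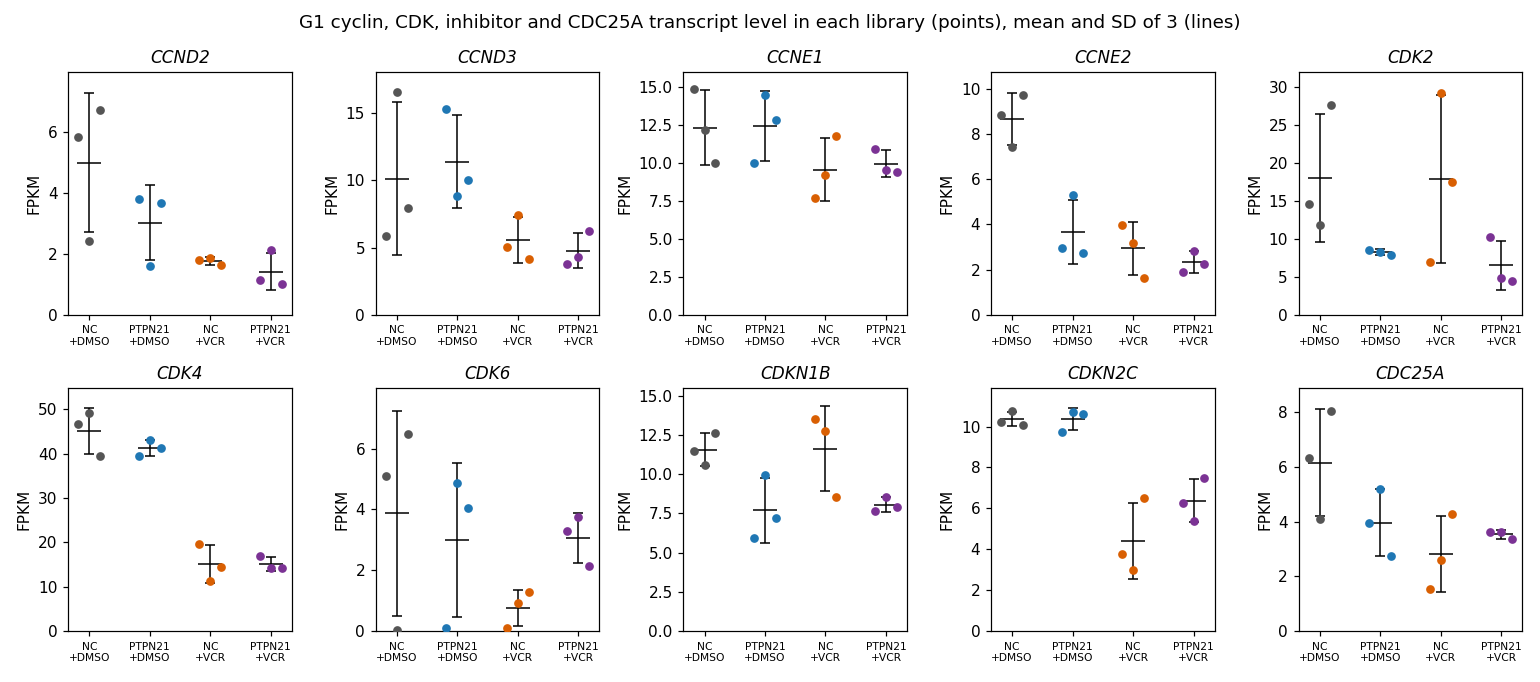
FPKM of each of the 10 genes in every library (points, 3 per group, coloured by group) with the group mean and SD (lines). CDK4 in all 6 VCR libraries lies below all 6 DMSO libraries, and CDK6 is near 0 in 1 library of each of 3 groups.

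VCR in control cells. The first question was which G1 genes moved with the drug in cells without the transgene. By limma on log2(FPKM + 1), with Benjamini-Hochberg adjustment over all genes tested, 5 of the 10 genes fell and 0 rose. Of all genes tested, 36.2% passed the same threshold, 28.3% falling and 7.91% rising, so changes with VCR were common and mostly downward on this scale. The median log2 fold change was -0.36 over all genes and -0.99 over the 10 genes.

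CDK4 is a kinase partner of D-type cyclins. Its level was 46.6, 49.3 and 39.4 FPKM in the NC+DMSO libraries and 19.7, 11.2 and 14.3 FPKM in the NC+VCR libraries. The groups did not overlap, and the mean was 2.99 times higher without drug (log2 fold change -1.55 ± 0.18 SE, adjusted p = 8.48e-05 in limma). CDK4 lies at chr12:57747727-57756013 (GRCh38, minus strand), and opposite to it runs TSPAN31, whose mean was 2.60 FPKM.

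CDK2, which pairs with E-type cyclins, showed no such drop. It stood at 14.6, 11.8 and 27.6 FPKM in NC+DMSO and at 6.94, 29.1 and 17.5 FPKM in NC+VCR. The widest spread within a group, 4.20-fold, was in the VCR libraries, and the log2 fold change of CDK2 was -0.13 with a 95% interval from -1.09 to 0.84 (adjusted p = 0.845 in limma).

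CDK6 is the paralog of CDK4. Its level was 5.09, 0.045 and 6.46 FPKM in NC+DMSO and 0.112, 0.912 and 1.27 FPKM in NC+VCR. NC+DMSO replicate 2 fell below every VCR library, while the other two lay above them all. The log2 fold change of CDK6 was -1.10 (adjusted p = 0.256 in limma), and without NC+DMSO replicate 2 it was -2.00 (adjusted p = 0.0285), so 1 library decided that call.

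Among the D-type cyclins CCND2 read 5.85, 2.43 and 6.74 FPKM in NC+DMSO and 1.81, 1.86 and 1.64 FPKM in NC+VCR. All treated libraries lay below all untreated ones (log2 fold change -1.03 ± 0.34 SE, adjusted p = 0.0316 in limma). This call for CCND2 was lost when NC+DMSO replicate 1 or 3 or any 1 of the NC+VCR replicates was left out, with adjusted p between 0.0598 and 0.116. CCND3 read 5.88, 16.6 and 7.96 FPKM in NC+DMSO and 5.03, 7.44 and 4.16 FPKM in NC+VCR, with overlapping groups (log2 fold change -0.68, adjusted p = 0.134).

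Of the E-type cyclins CCNE2 alone passed. The paralog shares below did not show a difference between CCNE2 and CCNE1 past correction. CCNE2 was 8.85, 7.45 and 9.74 FPKM in NC+DMSO and 3.98, 3.19 and 1.64 FPKM in NC+VCR. The groups of CCNE2 were well apart, with a mean 2.96 times higher without drug (log2 fold change -1.34 ± 0.28 SE, adjusted p = 0.00324 in limma). CCNE1 was 14.8, 12.1 and 9.95 FPKM in NC+DMSO and 7.65, 9.22 and 11.7 FPKM in NC+VCR. Its groups overlapped, and the log2 fold change of -0.34 had an interval from -0.78 to 0.10 (adjusted p = 0.211). CCNE2 (chr8:94879770-94896678, GRCh38, minus strand) overlaps INTS8 and NDUFAF6 on the other strand, which had means of 15.9 and 11.9 FPKM, and whether the counting used strand is not given in the sources used here, so part of its signal may belong to them.

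CDC25A read 6.32, 4.11 and 8.04 FPKM in NC+DMSO and 1.52, 2.61 and 4.29 FPKM in NC+VCR. The highest treated library lay just above the lowest untreated one, and the mean was 2.19 times higher without drug (log2 fold change -0.94 ± 0.30 SE, adjusted p = 0.0297 in limma). This call for CDC25A was lost without NC+DMSO replicate 1 or 3 and without NC+VCR replicate 1 or 2, with adjusted p between 0.0619 and 0.107.

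Of the inhibitors CDKN2C alone passed, and whether its change differed from that of CDKN1B was not tested. CDKN2C, the only INK4 gene among the 10, was 10.2, 10.8 and 10.1 FPKM in NC+DMSO and 3.76, 2.99 and 6.52 FPKM in NC+VCR. The untreated libraries were tight and the treated ones all lower (log2 fold change -1.12 ± 0.22 SE, adjusted p = 0.00263 in limma). CDKN1B was 11.5, 10.6 and 12.6 FPKM in NC+DMSO and 13.6, 12.8 and 8.56 FPKM in NC+VCR. Its means were 1.01-fold apart, with a log2 fold change of -0.01 and an interval from -0.47 to 0.44 (adjusted p = 0.966).

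The scale matters for these calls. Under median ratio scaling the median of all genes moved from -0.36 to -0.03, and the genes called in control cells split into 1732 higher and 1331 lower instead of 917 and 3275. CDK4 (-1.16), CCNE2 (-0.999) and CDKN2C (-0.77) still passed, whereas CCND2 (-0.72, adjusted p = 0.117) and CDC25A (-0.61, adjusted p = 0.132) did not. CDK2, CCNE1 and CDKN1B changed sign, to 0.25, 0.03 and 0.36. Relative to the median of all genes, CDK4 stood at -1.20 under TPM scaling, -1.26 under quantile normalization and -1.13 under median ratio scaling.

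**Figure D2:**
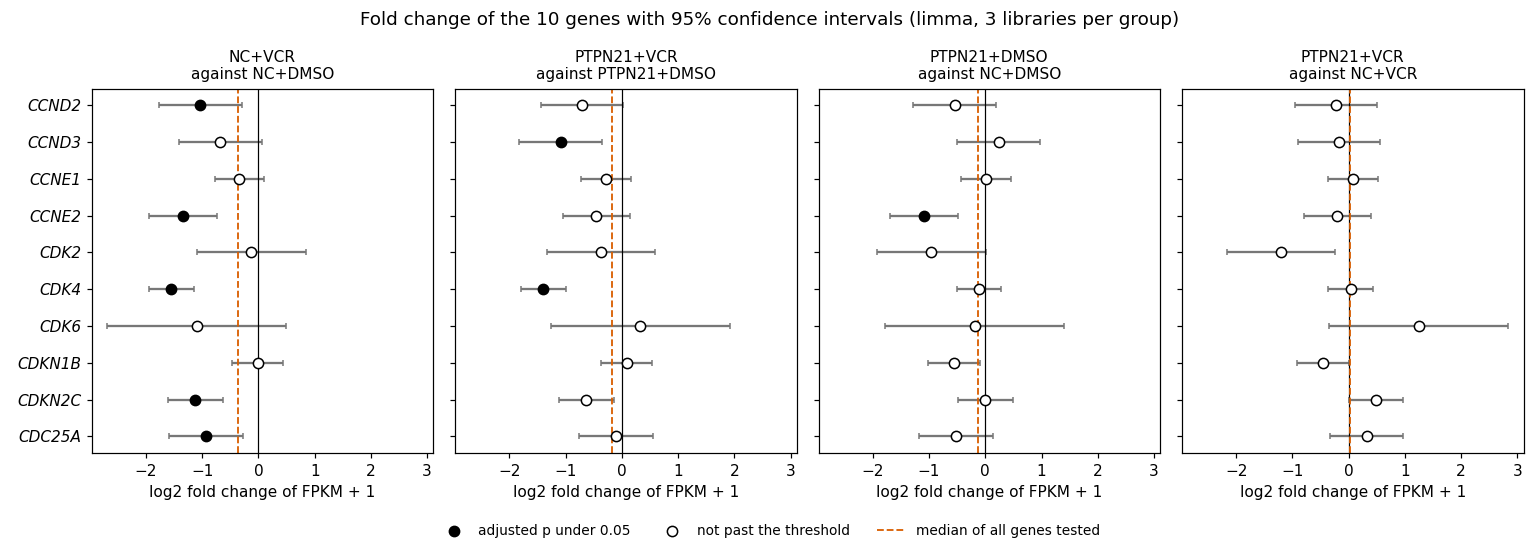
Log2 fold change of each gene in the 4 pairwise comparisons, with 95% confidence intervals (lines), filled where the adjusted p was under 0.05, and the median of all genes tested (dashed). CDK4 is filled in both VCR comparisons and stands near 0 in both PTPN21 comparisons.

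The promoters of CDK4, CDC25A and CCNE1 are shown because the first fell with VCR in both kinds of cells, the second passed the test in control cells, and the last passed none. RefSeq sequences (GRCh38.p14), 250 bases before to 50 after a start site, were searched for 7 of the 10 genes. These were CCND3, CCNE1, CDK4, CDK6, CDKN1B, CDKN2C and CDC25A, and promoters of the other members were not searched. In all, 3 motifs were searched on both strands: the E2F words TTTCCCGC, TTTCGCGC, TTTGCCGC and TTTGGCGC, the E-box CACGTG and the GC box GGGCGG. Capitals mark the matches, of whichever motif. The CDK4 window is chr12:57752261-57752560 (minus strand), that of CDC25A chr3:48188368-48188667 (minus strand) and that of CCNE1 chr19:29811741-29812040 (plus strand).
CDK4: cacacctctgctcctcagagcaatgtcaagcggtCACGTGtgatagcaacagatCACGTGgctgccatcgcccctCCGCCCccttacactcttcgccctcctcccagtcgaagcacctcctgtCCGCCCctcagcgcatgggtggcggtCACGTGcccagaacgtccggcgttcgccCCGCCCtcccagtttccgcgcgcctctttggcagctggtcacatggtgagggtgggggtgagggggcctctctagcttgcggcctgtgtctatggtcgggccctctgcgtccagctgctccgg
CDC25A: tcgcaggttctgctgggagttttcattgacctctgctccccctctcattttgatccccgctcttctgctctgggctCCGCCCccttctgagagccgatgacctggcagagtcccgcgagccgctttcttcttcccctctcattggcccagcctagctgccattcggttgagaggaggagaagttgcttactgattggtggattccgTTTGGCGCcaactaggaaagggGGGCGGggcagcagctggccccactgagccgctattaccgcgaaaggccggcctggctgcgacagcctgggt
CCNE1: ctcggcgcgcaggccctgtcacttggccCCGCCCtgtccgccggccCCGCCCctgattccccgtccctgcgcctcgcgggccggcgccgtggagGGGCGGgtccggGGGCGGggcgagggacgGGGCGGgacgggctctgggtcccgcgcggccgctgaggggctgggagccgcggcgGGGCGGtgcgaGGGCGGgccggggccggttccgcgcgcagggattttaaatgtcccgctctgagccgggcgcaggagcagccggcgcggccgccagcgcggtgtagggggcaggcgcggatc
The CDK4 window held 3 E-boxes, the motif bound by MYC and its relatives, and 3 GC boxes. An E-box occurred in 7.26% of all 35116 promoter windows and 3 or more in 0.094%. The count of 3 was taken from the CDK4 window itself, so this share is a description and not a test. The CDC25A window held 1 E2F word, TTTGGCGC, starting 44 bases before the start site, and such a word occurred in 3.31% of all windows. The CCNE1 window held 7 GC boxes and no match to the other motifs. At least 1 GC box occurred in 45% of all windows, and the share with 7 was not counted. Among windows not shown, E-boxes also occurred for CDKN2C, which fell with VCR in control cells, and for CDK6, which passed in no comparison. All of these are matches of letters, and no binding was measured.

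VCR in PTPN21 cells. The same drug comparison was made in the cells with the transgene, with its own untreated libraries. Of the 10 genes 2 fell and 0 rose (limma), while 28.5% of all genes passed, 19.3% falling and 9.22% rising. The median log2 fold change was -0.17 over all genes and -0.41 over the 10 genes.

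CDK4 was 39.5, 43.2 and 41.2 FPKM in PTPN21+DMSO and 16.9, 14.2 and 14.3 FPKM in PTPN21+VCR. The 2 groups of 3 were tight and far apart (log2 fold change -1.39 ± 0.18 SE, adjusted p = 0.000196 in limma), a 2.73-fold difference of means. CCND3 was 15.3, 8.86 and 10.0 FPKM in PTPN21+DMSO and 3.76, 4.31 and 6.25 FPKM in PTPN21+VCR. These groups did not overlap (log2 fold change -1.09 ± 0.34 SE, adjusted p = 0.0308), but the CCND3 call was lost under median ratio scaling (adjusted p = 0.0806) and quantile normalization (0.0866), and without PTPN21+DMSO replicate 1 or 3 or PTPN21+VCR replicate 1 or 2, with adjusted p between 0.06 and 0.119.

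CDKN2C was 9.75, 10.7 and 10.6 FPKM in PTPN21+DMSO and 6.27, 5.38 and 7.49 FPKM in PTPN21+VCR. All treated libraries were lower, and the log2 fold change of -0.63 ± 0.22 SE just missed the threshold (adjusted p = 0.0516 in limma). Without NC+VCR replicate 2 or 3, which enter only through the shared estimate of spread, it passed (adjusted p = 0.0286 and 0.0168), as it did with a higher minimum mean of 5 FPKM (0.0441), without the intensity trend (0.0483) and with only the groups compared (0.0201). CCND2 was 3.81, 1.60 and 3.67 FPKM in PTPN21+DMSO and 1.14, 2.12 and 1.00 FPKM in PTPN21+VCR, with overlap (log2 fold change -0.71, adjusted p = 0.137).

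Of the genes of the E2F-driven arm, CCNE2 was 2.94, 5.31 and 2.76 FPKM in PTPN21+DMSO and 1.91, 2.84 and 2.26 FPKM in PTPN21+VCR (log2 fold change -0.45, adjusted p = 0.247 in limma). Its untreated level was already below that of the NC+DMSO libraries. CDC25A was 3.96, 5.19 and 2.75 FPKM and then 3.63, 3.62 and 3.35 FPKM with VCR, a log2 fold change of -0.10 (adjusted p = 0.834). CCNE1 was 9.95, 14.5 and 12.8 FPKM and then 10.9, 9.52 and 9.38 FPKM, a log2 fold change of -0.28 (adjusted p = 0.33). In none of these 3 genes did the 2 groups separate.

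CDK2 was 8.55, 8.32 and 7.82 FPKM in PTPN21+DMSO and 10.2, 4.86 and 4.51 FPKM in PTPN21+VCR (log2 fold change -0.37, adjusted p = 0.572 in limma). CDK6 was 0.0962, 4.85 and 4.04 FPKM in PTPN21+DMSO and 3.30, 3.74 and 2.13 FPKM in PTPN21+VCR (log2 fold change 0.33, adjusted p = 0.776), again with 1 untreated library near 0. CDKN1B was 5.94, 9.94 and 7.19 FPKM and then 7.65, 8.57 and 7.94 FPKM (log2 fold change 0.08, adjusted p = 0.803). The treated CDKN1B libraries lay within the range of the untreated ones.

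PTPN21 without drug. The comparison of PTPN21+DMSO with NC+DMSO sets the 2 kinds of cells side by side without drug. It shares its control libraries with the drug comparison in control cells. Here and under VCR, an effect of PTPN21 cannot be told apart from any other difference between the 2 kinds of cells. CCNE2 alone of the 10 genes passed, and it fell, against 6.34% of all genes tested. From 7.45 to 9.74 FPKM in NC+DMSO it went to 2.76 to 5.31 FPKM in PTPN21+DMSO, a 2.37-fold difference of means (log2 fold change -1.09 ± 0.28 SE, adjusted p = 0.041 in limma). The CCNE2 call did not hold under several settings. It was lost without NC+DMSO replicate 1 or 3, PTPN21+DMSO replicate 1 or 3 or any PTPN21+VCR replicate (adjusted p between 0.0548 and 0.16), and in 7 of 9 other settings (0.0519 to 0.0969), among them median ratio scaling (0.0722), the replicate block (0.0675) and the fit to only the groups compared (0.0831).

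CDK2 and CDKN1B did not pass, though their groups did not overlap. The share of all genes tested without overlap was not counted. Such a separation of 3 from 3 libraries is only described, because an exact permutation test cannot go below p = 0.1 there. CDK2 lay between 11.8 and 27.6 FPKM in NC+DMSO and between 7.82 and 8.55 FPKM in PTPN21+DMSO (log2 fold change -0.96, adjusted p = 0.198 in limma). CDKN1B lay between 10.6 and 12.6 FPKM and between 5.94 and 9.94 FPKM (log2 fold change -0.55, adjusted p = 0.124). CDK4 (-0.12) and CDKN2C (-0.00106) had log2 fold changes close to 0, with intervals from -0.51 to 0.27 and from -0.49 to 0.48. CCND2 (-0.55), CDC25A (-0.52), CDK6 (-0.19), CCND3 (0.24) and CCNE1 (0.01) had adjusted p from 0.303 to 0.979.

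PTPN21 under VCR. Between PTPN21+VCR and NC+VCR 0 of the 10 genes passed in limma, against 1.82% of all genes. An unadjusted p under 0.05, which 17.1% of all genes had, was seen for CDK2 (log2 fold change -1.20, adjusted p = 0.183), CDKN1B (-0.46, adjusted p = 0.291) and CDKN2C (0.49, adjusted p = 0.291). CDK6 alone of the 10 did not overlap, with 0.112 to 1.27 FPKM in NC+VCR and 2.13 to 3.74 FPKM in PTPN21+VCR. How large a share of all genes tested did not overlap was not counted. With 3 against 3 libraries an exact permutation test cannot go below p = 0.1, so this separation is only described. The spread of CDK6 elsewhere left an interval from -0.35 to 2.83 around its log2 fold change of 1.24 (adjusted p = 0.421 in limma). CDK4 was 15.1 ± 4.27 FPKM and 15.1 ± 1.52 FPKM (SD, n = 3 each), a log2 fold change of 0.03 with an interval from -0.36 to 0.43. The values of CCND2 (-0.22), CCND3 (-0.17), CCNE1 (0.07), CCNE2 (-0.20) and CDC25A (0.32) had adjusted p from 0.646 to 0.903.

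Averaged over DMSO and VCR, again 0 of the 10 genes passed for PTPN21 against NC, where 9.28% of all genes did. CDK2 (log2 fold change -1.08 ± 0.31 SE, adjusted p = 0.0507), CDKN1B (-0.51 ± 0.15 SE, 0.052) and CCNE2 (-0.64 ± 0.20 SE, 0.0597) were nearest to the threshold in limma. Under TPM scaling these 3 genes passed (CDK2 0.0357, CDKN1B 0.0329, CCNE2 0.0402) and under median ratio scaling 0 did. CDK2 passed also without NC+DMSO replicate 2, NC+VCR replicate 1 or PTPN21+VCR replicate 1, with adjusted p from 0.0161 to 0.0434, and CDKN1B and CCNE2 passed without PTPN21+DMSO replicate 2 or NC+VCR replicate 3, with adjusted p from 0.0244 to 0.037. CDK2 (chr12:55966769-55972784, GRCh38, plus strand) overlaps PMEL on the other strand, which had at most 0.443 FPKM.

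Whether the drug acted differently in the 2 kinds of cells was tested as an interaction, and 0 of the 10 genes passed in limma, against 0.129% of all genes (15 genes). CCNE2 was the 1 gene of the 10 with an unadjusted p under 0.05 (0.89, interval 0.03 to 1.74, adjusted p = 0.343), which 14% of all genes had. So the calls of CCND2, CCNE2, CDC25A and CDKN2C in control cells, and of CCND3 in PTPN21 cells, were not shown to differ between them. For CDK4 the interaction was 0.15 with an interval from -0.40 to 0.71.

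Paralog shares. Within a library the share of 1 paralog in its pair does not depend on how libraries are scaled. CCNE2 made up 37.4, 38.1 and 49.5% of the E-type cyclin signal in NC+DMSO and 34.2, 25.7 and 12.3% in NC+VCR. With PTPN21 it was 22.8, 26.9 and 17.7% in PTPN21+DMSO and 14.8, 23.0 and 19.4% in PTPN21+VCR. The 3 NC+DMSO libraries were the highest, and every other library lay below them. Taken over both constructs the share was 10.5 percentage points lower with VCR (p = 0.035, adjusted p = 0.105 over 6 tests), and over both treatments 12.1 points lower with PTPN21 (p = 0.03, adjusted p = 0.105), by exact two-sided permutation tests within strata. Neither passed the correction. An exact permutation test of 3 with 3 libraries cannot go below p = 0.1, which the comparisons of NC+VCR and of PTPN21+DMSO with NC+DMSO both reached.

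For the D-type pair, CCND3 made up 63.8 ± 20.3% (SD, n = 3) in NC+DMSO and 75.1 ± 4.32% in NC+VCR, against 79.3 ± 5.78% in PTPN21+DMSO and 76.6 ± 9.55% in PTPN21+VCR. These groups overlapped (adjusted p = 0.53 for VCR and 0.372 for PTPN21, exact permutation within strata). CDK6 made up 8.01 ± 7.18% of the CDK4 and CDK6 signal in NC+DMSO and 5.41 ± 4.20% in NC+VCR, against 6.43 ± 5.39% in PTPN21+DMSO and 16.7 ± 3.92% in PTPN21+VCR. In PTPN21+VCR the share ran from 13.0 to 20.8%, above every library of NC+VCR and of PTPN21+DMSO (exact permutation p = 0.1 for each, the smallest possible). The strata-wide tests of CDK6 gave adjusted p = 0.372 for both VCR and PTPN21.

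**Figure D3:**
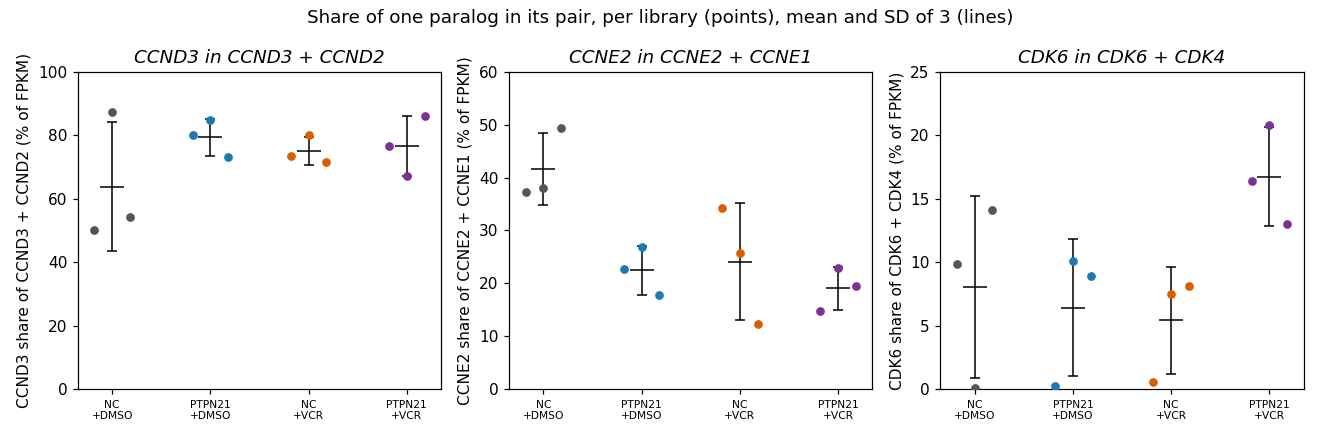
Share of CCND3 in CCND3 + CCND2, of CCNE2 in CCNE2 + CCNE1 and of CDK6 in CDK6 + CDK4, in percent of their summed FPKM, per library (points) with group mean and SD (lines). The CCNE2 share is highest in the 3 NC+DMSO libraries, between 37.4 and 49.5%.

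Ratios between 2 genes of the 10 within a library are likewise free of scaling and are given as a description. CDKN1B per CDK4 was 0.261 ± 0.0545 (SD, n = 3) in NC+DMSO and 0.808 ± 0.291 in NC+VCR, against 0.185 ± 0.0409 in PTPN21+DMSO and 0.538 ± 0.0764 in PTPN21+VCR. All 6 VCR libraries (0.454 to 1.14) lay above all 6 DMSO libraries (0.151 to 0.321). CDKN1B per CDK2, the kinase whose complexes p27 blocks, did not separate in this way. It was 0.712 ± 0.227 in NC+DMSO and 0.960 ± 0.859 in NC+VCR, against 0.937 ± 0.251 in PTPN21+DMSO and 1.42 ± 0.586 in PTPN21+VCR, and the VCR libraries (0.439 to 1.95) overlapped the DMSO libraries (0.458 to 1.195). CDKN2C per CDK4 was 0.232 ± 0.0213, 0.304 ± 0.136, 0.251 ± 0.00567 and 0.425 ± 0.0867 in the same order, and both genes were lower with VCR. The PTPN21+VCR libraries (0.372 to 0.525) lay above all 6 DMSO libraries (0.219 to 0.258), while the NC+VCR libraries (0.191 to 0.454) overlapped them. CCNE1 per CDK2 was 0.800 ± 0.380 in NC+DMSO and 0.697 ± 0.394 in NC+VCR, against 1.51 ± 0.307 in PTPN21+DMSO and 1.70 ± 0.553 in PTPN21+VCR, and the NC and PTPN21 libraries overlapped under VCR, where NC+VCR replicate 1 reached 1.102.

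**Figure D4:**
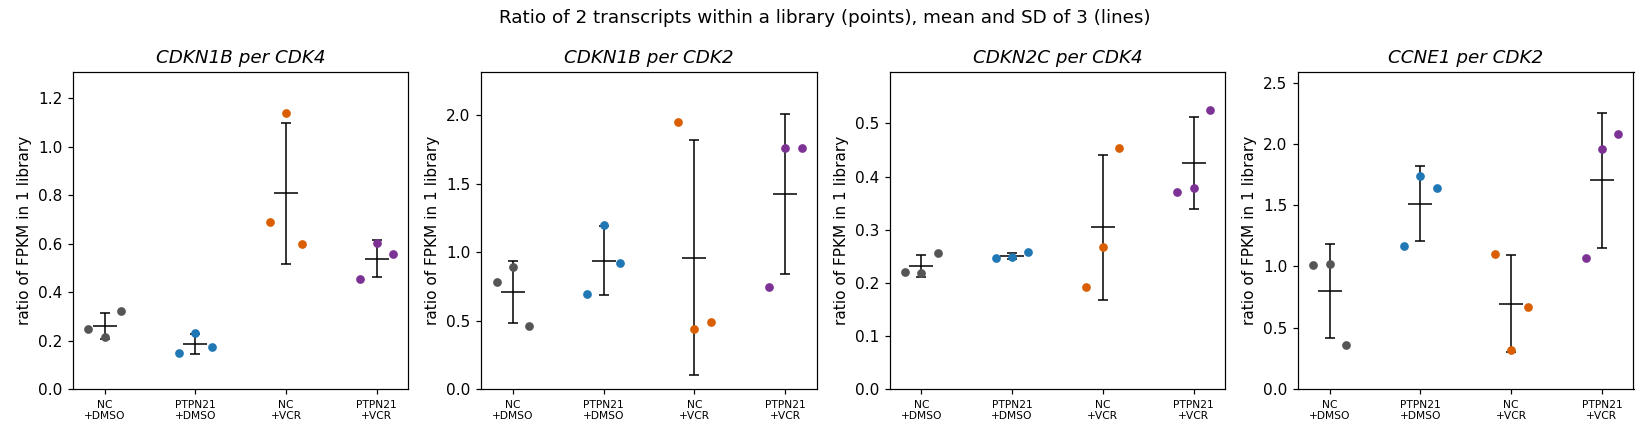
Ratio of the FPKM of 2 genes within each library (points) with group mean and SD (lines), for CDKN1B per CDK4, CDKN1B per CDK2, CDKN2C per CDK4 and CCNE1 per CDK2. CDKN1B per CDK4 is between 0.151 and 0.321 in DMSO and between 0.454 and 1.14 in VCR libraries, while CDKN1B per CDK2 overlaps between them.

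Spread within groups set what could be seen. The SD within groups on the log2 scale was 1.07 for CDK6, at percentile 98.7 of all genes tested, and 0.64 for CDK2, at percentile 92.9. CDK6 differed up to 143.5-fold between libraries of 1 group, a kind of swing not confined to it, since 8.84% of genes tested differed 10-fold or more somewhere within a group. CDK4 (SD 0.22), CCNE1 (0.24), CDKN1B (0.24) and CDKN2C (0.26) were the steadiest of the 10.

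Other G1/S genes. Of 35 further genes of the pathway, in 5 lists, 31 passed the filter. In control cells 3 of them rose and 11 fell with VCR, and in PTPN21 cells 3 rose and 10 fell (limma). Of all genes tested, 7.91% rose and 28.3% fell in control cells, and 9.22% rose and 19.3% fell in PTPN21 cells. Under median ratio scaling the counts of the 31 genes were 6 and 3 in control cells and 5 and 6 in PTPN21 cells. The balance of rises and falls thus depends on the scale. The median log2 fold change of the 31 genes was -0.27 and -0.14, beside -0.36 and -0.17 for all genes tested.

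The D-type cyclin and inhibitor genes beyond the 10 held the clearest rise. CDKN1A, which codes for the KIP inhibitor p21, went from 0.656 ± 0.392 FPKM (SD, n = 3) in NC+DMSO to 4.91 ± 1.30 FPKM in NC+VCR (log2 fold change 1.84 ± 0.28 SE, adjusted p = 0.000459 in limma), and from 0.697 ± 0.319 to 3.40 ± 1.06 FPKM in PTPN21 cells (1.36 ± 0.28 SE, adjusted p = 0.00351). CCND1 fell, from 15.6 ± 2.59 to 5.47 ± 0.541 FPKM in control cells (-1.35 ± 0.17 SE, adjusted p = 0.000129) and from 12.9 ± 1.13 to 3.14 ± 0.134 FPKM in PTPN21 cells (-1.75 ± 0.17 SE, adjusted p = 2.18e-05). Averaged over treatments CCND1 was lower with PTPN21 (-0.44, adjusted p = 0.0373), but not under median ratio scaling (adjusted p = 0.0536). CDKN1C and CDKN2D stayed low, with group means from 0.578 to 1.39 FPKM and from 1.53 to 1.91 FPKM, and passed no test. CDKN2A, the INK4 gene for p16, reached at most 0.0688 FPKM and CDKN2B, for p15, was listed at 0 in all 12 libraries.

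None of the 4 genes of CDK activation passed (CDK7, CCNH and MNAT1 form the activating kinase, CDC37 is the chaperone partner). Among 8 genes of cyclin and p27 turnover, 7 of the SCF ubiquitin ligases and AMBRA1, a receptor of another ubiquitin ligase that acts on D-type cyclins, the scaffold CUL1 (0.71 in control and 1.04 in PTPN21 cells) and the RING subunit RBX1 (1.07 and 0.67) rose with VCR. The cyclin E receptor FBXW7 fell in control cells (-1.82, adjusted p = 8.29e-05 in limma) together with CKS1B (-0.78) and AMBRA1 (-0.76). In PTPN21 cells the p27 receptor SKP2 (-1.43, adjusted p = 0.00368 in limma) and the ubiquitin-conjugating enzyme CDC34 (-0.55) fell. In control cells SKP2 was also lower in every VCR library (2.96 to 5.36 against 6.46 to 10.5 FPKM) but did not pass. The same held for CKS1B in PTPN21 cells (66.2 to 74.2 against 78.8 to 86.2 FPKM). Of all genes tested, 36.2% passed with VCR in control cells and 28.5% in PTPN21 cells. Without drug, PTPN21 cells had more RBX1 (0.98) and less FBXW7 (-1.21) and AMBRA1 (-0.97) than control cells, and under VCR they had more CKS1B (0.87) and less CDC34 (-0.76). Averaged over treatments CKS1B (0.59) and RBX1 (0.78) were higher with PTPN21. The shares of all genes tested that passed for PTPN21 were 6.34% without drug, 1.82% under VCR and 9.28% averaged over treatments.

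With VCR 28.3% of all genes tested fell in control cells and 19.3% in PTPN21 cells. Of 8 pocket protein and E2F genes tested, 3 fell in each kind of cells with VCR. These were RBL1 (-0.85), E2F4 (-0.77) and the E2F partner TFDP2 (-0.70) in control cells and TFDP2 (-1.51), E2F1 (-0.86) and E2F4 (-0.85) in PTPN21 cells. TFDP2 was also higher in PTPN21+DMSO than in NC+DMSO (0.85, adjusted p = 0.0376 in limma), and RB1 passed in neither drug comparison. Of 7 S-phase genes under E2F control, 4 fell in each kind of cells, beside the same 28.3% and 19.3% of all genes. The origin licensing factor CDC6 fell most (-1.11, adjusted p = 0.000202 in control cells, and -0.99, adjusted p = 0.000479 in PTPN21 cells). In control cells the thymidylate synthase gene TYMS (-0.79) and the ribonucleotide reductase gene RRM2 (-0.72) followed, and in PTPN21 cells the licensing factor CDT1 (-0.99) and the thymidine kinase gene TK1 (-0.87). Under median ratio scaling CDC6 still passed in both, whereas TYMS in both, RBL1, E2F4, TFDP2, RRM2, CKS1B and AMBRA1 in control cells and CDT1, TK1 and CDC34 in PTPN21 cells did not.

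**Figure D5:**
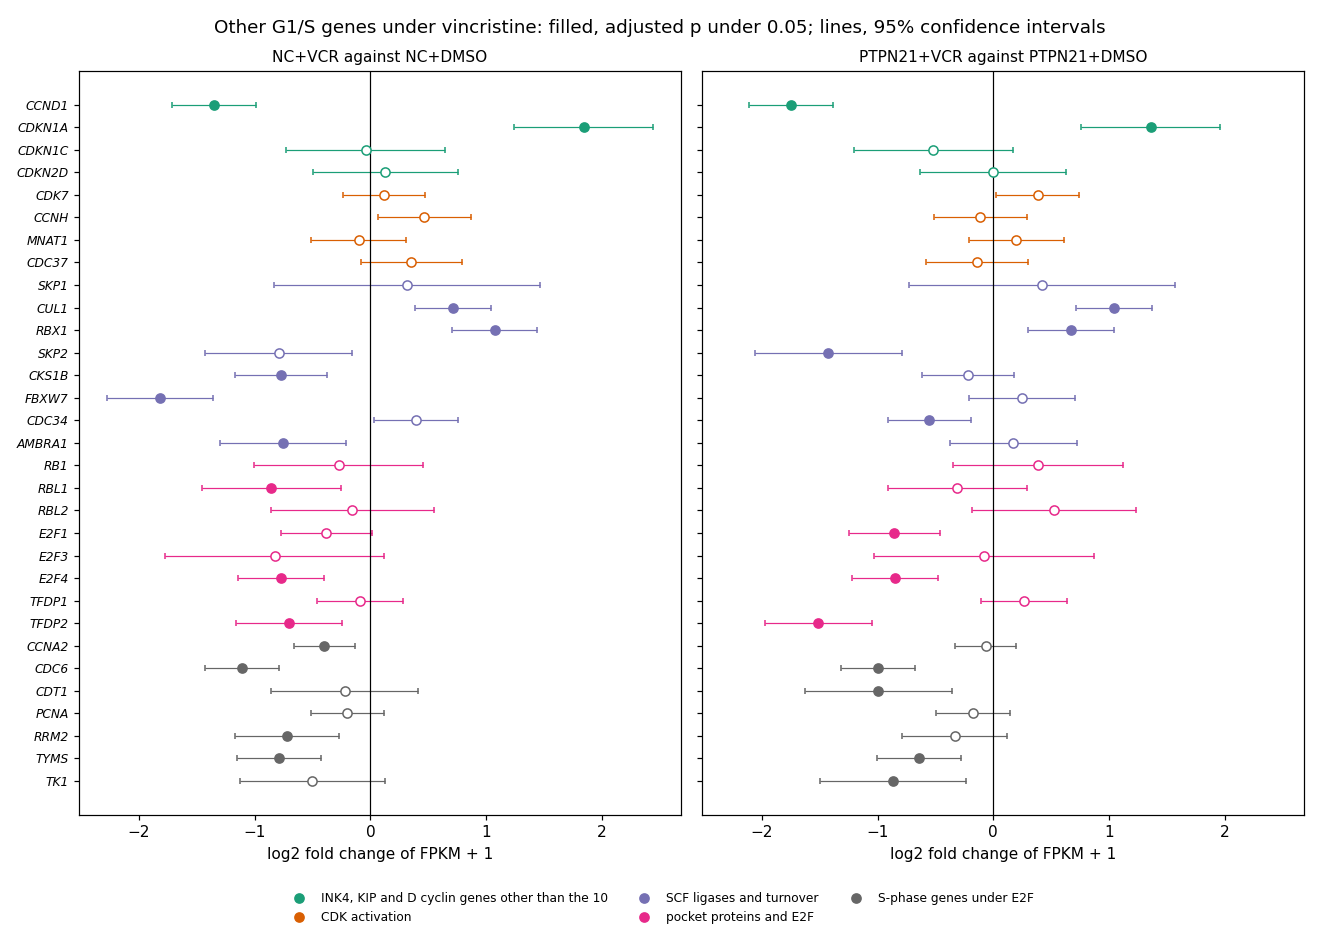
Log2 fold change with VCR of the 31 other G1/S genes that passed the filter, in control cells (left) and PTPN21 cells (right), with 95% confidence intervals, filled where the adjusted p was under 0.05. CDKN1A is the largest rise on both sides, and CCND1 and CDC6 fall on both.

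For each of the 10 genes the gene with the most similar profile over the 12 libraries was found by Pearson r of log2(FPKM + 1), as a description over libraries that share the drug and construct groups. CDK4 went with FEN1 (r = 0.990), a flap endonuclease of DNA replication, and CDKN2C with POLR3F (0.978), an RNA polymerase III subunit. CCND3 went with IFI35 (0.960), CCNE2 with TRAK2 (0.951) and CDKN1B with NONO (0.940). CCND2 went with SRCAP (0.934), CDK2 with ZNF519 (0.930), CDK6 with UNC50 (0.928), CDC25A with ACBD7 (0.926) and CCNE1 with FGF11 (0.920).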

How the data were processed

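The authors deposited 1 table of FPKM values for 12 libraries, made by an external company. The submitters' processing notes name fastp, Bowtie2 and the build mm10, although the table lists human Ensembl genes. The counting program, annotation, strand setting and filters are not given in the sources used here. Depth is unknown, because steps of 1 and of 2 fragments could not be told apart in the low values.

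The 10 genes and the gene lists were chosen with earlier results of these data known, and some genes of those lists are not reported here and were left out of their counts and sums. The deposited FPKM were turned into log2(FPKM + 1) for the 11591 genes with a mean of at least 1. limma 3.58.1 (R 4.3.3), tested on simulated data, was fitted with an intensity trend to 4 group means, with Benjamini-Hochberg adjustment and a threshold of 0.05. Shares used exact permutation tests. Replicate correlations were 0.939 to 0.976. Deviations of same-numbered libraries correlated between -0.145 and 0.0583, so numbers were not taken to pair samples. All 10 genes are named, as are the up to 3 largest called changes per list, direction and comparison, the other INK4, KIP and D cyclin genes and, per gene, the most similar gene. Gene positions are from GENCODE release 29 (GRCh38). Alternatives covered the pseudocount, filter, scaling, trend, robust moderation, groups fitted, replicate block and each library left out.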

Additional observations from a re-analysis of the deposited data

Results flagged for a closer look

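FBXW7, the cyclin E receptor of an SCF ligase, was the 1 gene of the pathway lists whose response to VCR differed between the 2 kinds of cells by the test of the interaction. It was 17.4, 14.2 and 23.1 FPKM in NC+DMSO and 3.55, 4.37 and 5.25 FPKM in NC+VCR, but 7.64, 7.92 and 6.10 FPKM in PTPN21+DMSO and 9.87, 7.35 and 9.05 FPKM in PTPN21+VCR. The interaction was 2.07 ± 0.30 SE on the log2 scale (adjusted p = 0.0218 in limma). It was lost with the replicate block (adjusted p = 0.061), with no filter (0.0668) and without NC+DMSO replicate 1, PTPN21+DMSO replicate 3 or PTPN21+VCR replicate 1 or 3 (0.0599 to 0.0744). The cause was not tested. None of the 10 G1 genes was singled out this way, and groups of 3 libraries are too small for the test of single outlying samples.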

How the results depend on the processing

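CDK4 with VCR in both kinds of cells, and CDKN2C and CCNE2 in control cells, kept their direction and passed under each of 10 other settings and with each of 12 libraries left out, except that CCNE2 was not tested when the minimum mean was raised to 5 FPKM. Of the 10 genes, the number called in NC+VCR against NC+DMSO was 3 in place of 5 with no filter, under median ratio scaling, under quantile normalization and with only the groups compared, and 2 with that higher minimum, where fewer genes are tested. In PTPN21+VCR against PTPN21+DMSO it was 1 in place of 2 with no filter, median ratio scaling and quantile normalization, and 3, with CDKN2C, with the higher minimum, no trend and only the groups compared. In PTPN21+DMSO against NC+DMSO it was 0 in place of 1 with the pseudocount of 0.1, no filter, the higher minimum, median ratio scaling, quantile normalization, no trend, only the groups compared and the replicate block. For PTPN21 averaged over treatments it was 2 in place of 0 with the higher minimum, 3 under TPM scaling and 1 with robust moderation. Leaving out libraries gave 3 to 6, 1 to 3, 0 to 1, 0 to 0, 0 to 2 and 0 to 0 genes in the order of the report.

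Of the other pathway genes, the number called in NC+VCR against NC+DMSO was 9 in place of 14 under median ratio scaling and with only the groups compared. In PTPN21+DMSO against NC+DMSO it was 2 in place of 4 with no filter and with the replicate block and 0 with only the groups compared. In PTPN21+VCR against NC+VCR it was 1 in place of 2 under quantile normalization and 0 with no filter, median ratio scaling, no trend, only the groups compared and the replicate block. For PTPN21 averaged it was 5 in place of 3 with the higher minimum and 6 under TPM scaling, and for the interaction 0 in place of 1 with no filter and with the replicate block. Leaving out libraries gave 11 to 15, 10 to 13, 0 to 9, 0 to 3, 2 to 9 and 0 to 1. The replicate block called 3796 genes in place of 4192 in control cells with VCR and 242 in place of 735 for PTPN21 without drug. Same-numbered libraries share only a number, and the block changed no member call other than that of CCNE2 in PTPN21+DMSO.

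The share differences moved without passing or reversing. Leaving out libraries gave 0.86 to 10.1 and 5.10 to 14.4 percentage points for CCND3 with VCR and with PTPN21, -13.0 to -7.52 and -15.0 to -9.54 for CCNE2, and 1.87 to 5.37 and 2.89 to 6.42 for CDK6.

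Values that changed sign were near 0 or had wide intervals, and none had passed. Under TPM scaling these were CCND3 (-0.059, PTPN21 averaged), CCNE1 (-0.12, PTPN21+DMSO, and -0.055, averaged) and CDK4 (-0.024, PTPN21+VCR against NC+VCR). With VCR in control cells, median ratio scaling and quantile normalization gave CCNE1 0.028 and 0.030, CDK2 0.25 and 0.16, and CDKN1B 0.36 and 0.34. In PTPN21 cells with VCR they gave CDC25A 0.044 and 0.093. In PTPN21+DMSO against NC+DMSO they gave CDKN2C 0.18 and 0.20, and median ratio scaling gave CDK4 0.077. For PTPN21 averaged they gave CDK4 0.048 and 0.013. For the interaction they gave CCNE1 -0.14 and -0.13 and CDKN1B -0.11 and -0.074, and median ratio scaling gave CDK4 -0.058. The cause was not tested.

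Leaving out libraries turned the sign of 20 member values. In PTPN21+DMSO against NC+DMSO the ranges were -0.052 to 0.62 for CCND3, -0.12 to 0.15 for CCNE1, -1.08 to 0.58 for CDK6 and -0.025 to 0.038 for CDKN2C. In PTPN21+VCR against NC+VCR they were -0.35 to 0.027 for CCND3, -0.063 to 0.22 for CCNE1 and -0.15 to 0.23 for CDK4. For PTPN21 averaged they were -0.11 to 0.23 for CCND3, -0.025 to 0.11 for CCNE1, -0.23 to 0.034 for CDC25A and -0.13 to 0.055 for CDK4. With VCR in control cells they were -0.56 to 0.40 for CDK2 and -0.13 to 0.18 for CDKN1B. In PTPN21 cells with VCR they were -0.29 to 0.072 for CDC25A, -0.44 to 0.77 for CDK6 and -0.066 to 0.26 for CDKN1B. For the interaction they were -0.081 to 0.20 for CCNE1, -0.77 to 0.19 for CDK2, -0.029 to 0.35 for CDK4 and -0.093 to 0.28 for CDKN1B.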
